A study of Mus musculus with 18 samples.

Results

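Among 18 splenic lymphomas of Eμ-Myc mice, the 6 with the highest and the 6 with the lowest levels of interferon-stimulated genes were set against each other. The tumours were chosen by a score, the mean log2 level of the interferon-stimulated genes Ifit1, Ifit3, Rsad2, Oasl2 and Irf7 in each tumour, with genotypes pooled. It listed 6 genes, of which 5 entered the score, and the remaining gene is not analysed here. The 6 tumours of highest score are called interferon-high, the 6 of lowest score interferon-low, and the 6 others lay between them. All 18 mice, of C57BL/6 background, carried Eμ-Myc, a transgene that places Myc under an immunoglobulin heavy chain enhancer active in B cells, and 9 were Prdm11 knockout (KO) and 9 Prdm11 wild type (WT). Each array held the RNA of 1 homogenised end-stage splenic tumour from a separate mouse, with no treatment and no cell sorting stated, so RNA of other spleen cells was measured with that of the tumour. Fewer cells of a type and less RNA per cell cannot be told apart in such samples.

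The groups nearly coincided with genotype. The interferon-high tumours were 1 KO and 5 WT, those between were 3 KO and 3 WT, and the interferon-low tumours were 5 KO and 1 WT. Score group and Prdm11 genotype therefore cannot be told apart in the pooled comparison, and values from fits with genotype as a term or within 1 genotype are given beside the results. Among the 12 tumours, only KO6 and WT9 differed in genotype from the rest of their group. Fits to these 12 with genotype as a covariate therefore lean on KO6 and WT9. The groups were also drawn from measured values. A p-value below describes how far a gene followed the score genes across these 12 tumours, and no treatment was compared. Prdm11 itself had 5.03, 5.33 and 5.42 as its lowest, median and highest log2 level in interferon-high tumours, against 4.84, 5.10 and 5.49 in interferon-low tumours (limma unadjusted p = 0.413). The labels do not say whether its probe set reads the exons removed in the KO, so it checks nothing about them. The Y-linked gene Eif2s3y ran from 7.61 to 8.48 in interferon-high tumours. Among interferon-low tumours it was 6.11 in KO1, 6.32 in KO3 and 6.47 in WT9. It was 8.07 in KO4, 8.27 in KO8 and 8.68 in KO9 (limma unadjusted p = 0.0627). Uty, also Y-linked, was not divided in that way, with 6.94 in WT9 and 5.80 in KO8. Whether sex contributed to the differences was not tested.

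The type I interferons, interferon alpha and beta, signal through the receptor chains IFNAR1 and IFNAR2 and the kinases TYK2 and JAK1 to a complex of STAT proteins and IRF9. That complex binds interferon-stimulated response elements, which hold paired GAAA motifs, and switches on genes that block virus replication. Interferon gamma, made mainly by T cells and NK cells, signals through its own receptor and JAK1 and JAK2, and induces guanylate-binding proteins, immunity-related GTPases, chemokines and antigen presentation.

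The score genes encode proteins of the antiviral state. IFIT1 and IFIT3 belong to a family that binds foreign RNA, RSAD2 (viperin) makes a chain-terminating nucleotide, OASL2 belongs to the oligoadenylate synthetase family and IRF7 drives interferon alpha transcription. The promoter windows of the score genes that held a paired GAAA motif are shown because interferon-stimulated response elements hold such motifs. Whether these matches act as such elements was not tested. The motif was searched as GAAANNGAAA on both strands, so that TTTCNNTTTC is the same motif on the other strand. Windows are 5′ to 3′ on the strand of the gene, from the RefSeq promoter table on GRCm38.p6, with the motif in capitals.
Ifit1 (chr19:34640760-34640838, + strand): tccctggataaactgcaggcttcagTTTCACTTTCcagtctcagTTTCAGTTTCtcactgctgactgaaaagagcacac
Ifit3 (chr19:34583348-34583441, + strand): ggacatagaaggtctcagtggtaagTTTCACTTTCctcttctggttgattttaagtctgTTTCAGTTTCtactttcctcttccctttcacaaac
Rsad2 (chr12:26456538-26456597, - strand): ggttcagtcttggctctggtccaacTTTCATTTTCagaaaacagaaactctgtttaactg
Ifit1 and Ifit3 each held 2 copies, which began 104 and 85 bases before the start of Ifit1 and 156 and 122 bases before that of Ifit3. Rsad2 held 1 copy, 120 bases before its start. No match was found in the windows of Oasl2 and Irf7, which says only that these letters are not in those 300 bases.

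The score ran from 7.29 to 5.36 over the 18 tumours. From the highest down, the interferon-high tumours were WT5 at 7.29, WT4 at 7.24, WT1 at 6.92, WT6 at 6.80, WT8 at 6.55 and KO6 at 6.54. The interferon-low tumours were KO1 at 6.02, KO3 at 5.90, WT9 at 5.75, KO8 at 5.53, KO9 at 5.38 and KO4 at 5.36. The scores formed a slope without a wide gap at either boundary. KO6 at 6.54 was the last tumour counted as high and KO7 at 6.37 the first left out, and KO1 at 6.02 was the first counted as low, with KO2 at 6.05 just above it.

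The 5 score genes did not move as 1 unit, as the plot of score genes by tumour shows. Ifit3 had 7.59, 8.37 and 9.47 as its lowest, median and highest level in interferon-high tumours, against 5.79, 6.54 and 7.16 in interferon-low tumours, a difference of 1.94 (3.84-fold). Ifit1 had 5.86, 6.22 and 7.16 in interferon-high tumours, against 4.43, 4.86 and 5.59 in interferon-low tumours (2.90-fold). Irf7 differed by 0.73 (1.66-fold) and Oasl2 by 0.92 (1.89-fold). These 4 genes had groups that did not overlap. Rsad2 had 6.35, 8.14 and 8.73 in interferon-high tumours, against 5.91, 6.90 and 7.87 in interferon-low tumours, and its groups overlapped. KO6 was low for Rsad2 at 6.35 and high for Ifit3 at 8.64, while WT1 and WT6 were the reverse, with Rsad2 at 8.73 and 8.70 and Ifit3 at 7.59 and 7.68. Since these genes chose the tumours, their differences are a description and were not tested.

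**Figure D1:**
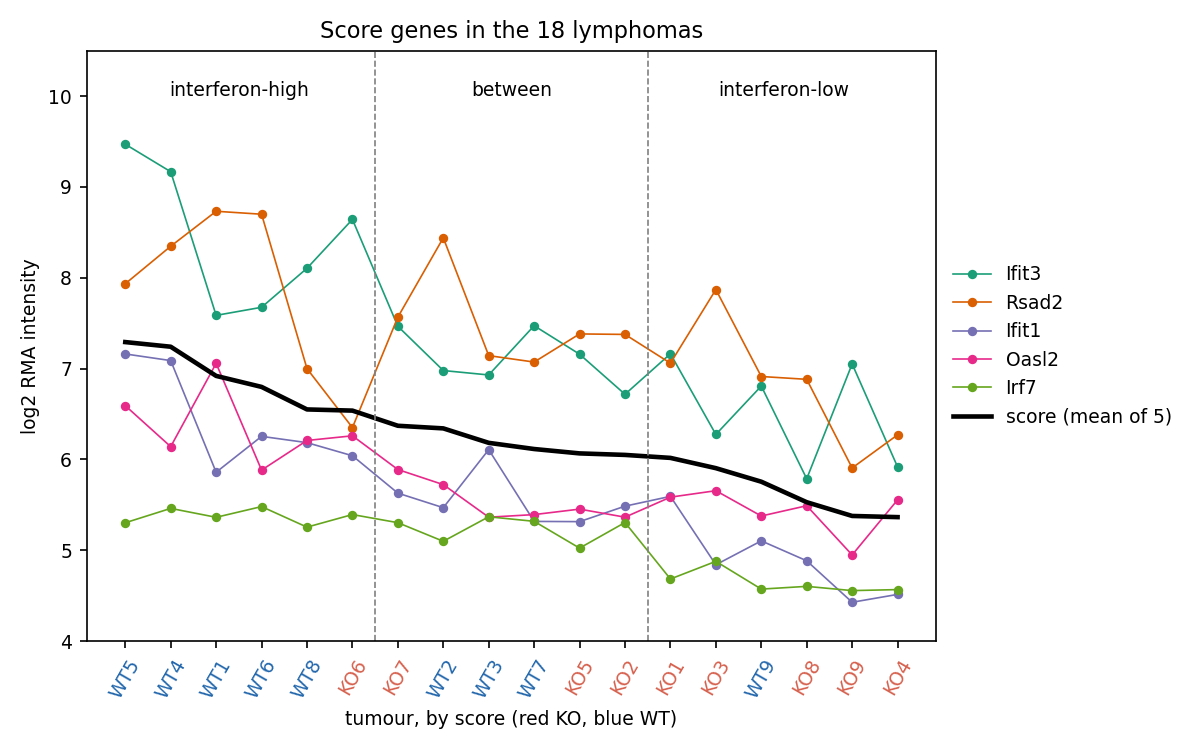
Levels of the 5 score genes (coloured lines, log2 RMA intensity) and their mean, the score (black line), in each of the 18 tumours, ordered by score along the horizontal axis and divided by dashed lines into interferon-high, between and interferon-low. The score falls without a step from 7.29 in WT5 to 5.36 in KO4, and Rsad2 and Ifit3 take opposite positions in KO6 and in WT1 and WT6.

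Across the other 19933 genes, 23 rose and 5 fell in interferon-high tumours at a limma adjusted p below 0.05 (Benjamini-Hochberg over all genes), which is 0.115% and 0.0251% of the genes tested. At an unadjusted p below 0.05, 1160 genes (5.82%) were higher and 977 (4.9%) lower. Complete separation of the groups, with every interferon-high tumour beyond every interferon-low one, was seen for 115 genes (0.577%) in the higher direction and 63 (0.316%) in the lower. Of the 23 genes that rose, 21 separated completely, and so did 4 of the 5 that fell. Adjusted p-values of all 28 lay between 0.0328 and 0.048, close to the threshold, and differences ranged from 1.64-fold to 5.29-fold upward and from 1.61-fold to 2.58-fold downward. Leaving out WT1 raised the counts to 114 and 32, and leaving out WT5, WT4, KO6, KO1, WT9 or KO8 each left 0 and 0, with 862 to 1147 higher and 673 to 949 lower at an unadjusted p below 0.05. Without WT6 the counts were 43 and 2, without KO9 10 and 0, without KO3 5 and 2, without WT8 4 and 0, and without KO4 0 and 1. With genotype as a covariate 0 genes passed the adjusted threshold (1095 higher and 1234 lower at an unadjusted p below 0.05), and all 28 kept their sign with unadjusted p-values below 0.05. The 28 were chosen by the pooled fit to the same tumours, so their result here was largely fixed in advance and is a description.

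Of the 23 genes that rose, 8 belonged to the interferon lists, beside 183 of all 19933 genes tested. The largest difference among the 23 was that of Ccl5, a chemokine that attracts T cells and other leukocytes. Its log2 level was 9.92 in WT5, 9.88 in WT4, 9.27 in WT1, 8.18 in WT6, 10.24 in WT8 and 10.09 in KO6, against 7.39 in KO1, 7.65 in KO3, 7.55 in WT9, 6.60 in KO8, 7.18 in KO9 and 6.80 in KO4. The groups did not overlap, WT6 was the lowest of the interferon-high tumours, and the difference was 2.40 (SE 0.31, 5.29-fold, limma adjusted p = 0.0328). Iigp1, an immunity-related GTPase that attacks the vacuoles of intracellular parasites, averaged 8.19 ± 0.92 in interferon-high tumours and 5.91 ± 0.68 in interferon-low tumours (SD, n = 6 each). Its difference was 2.28 (SE 0.40, limma adjusted p = 0.048), and 1 interferon-low tumour, WT9 at 7.03, exceeded WT6 at 6.87.

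Gm4951, listed among the interferon-inducible GTPases, had 6.23, 7.28 and 7.68 as its lowest, median and highest level in interferon-high tumours, against 4.99, 5.37 and 6.01 in interferon-low tumours (difference 1.67). Gbp8, a guanylate-binding protein gene, had 7.44, 8.48 and 9.05 in interferon-high tumours, against 5.76, 6.79 and 7.28 in interferon-low tumours (difference 1.67). Both separated the groups completely. Iigp1, Gm4951, Gbp8, Ifi207, Sp140 and Clec4a3 belong to families of similar genes, and an array probe set may also read relatives, so their identity within the family is uncertain.

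Ifitm3, whose protein blocks virus entry at endosomal membranes, had 10.72, 11.38 and 11.48 in interferon-high tumours, against 9.76, 9.94 and 10.42 in interferon-low tumours (difference 1.20, SE 0.17, limma adjusted p = 0.033). Usp18, the protease that restrains signalling at IFNAR2, had 6.41, 6.65 and 7.24 in interferon-high tumours, against 4.87, 5.58 and 5.99 in interferon-low tumours (difference 1.25, SE 0.20). Usp18 was highest in WT5 and WT4, the tumours with the highest scores. Zbp1, a sensor of Z-form nucleic acid that can trigger cell death, averaged 5.94 ± 0.24 in interferon-high tumours and 4.97 ± 0.22 in interferon-low tumours (SD, n = 6 each, difference 0.96). Ifih1, which encodes the RNA sensor MDA5, averaged 7.18 ± 0.33 in interferon-high tumours and 6.14 ± 0.21 in interferon-low tumours (SD, n = 6 each, difference 1.04). These 4 genes had groups that did not overlap.

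Among the genes that rose and were in no list, Sp140 differed most. It encodes a nuclear body protein of lymphoid and myeloid cells. It had 7.39, 7.69 and 8.64 in interferon-high tumours, against 5.15, 6.30 and 6.78 in interferon-low tumours (difference 1.73, SE 0.28, limma adjusted p = 0.043). Clec4a3, a C-type lectin of myeloid cells, differed by 1.59, and KO9 at 7.25 came closest to the interferon-high range, which began at 7.35. Fyb, an adaptor of T cell receptor and integrin signalling, differed by 1.41, with its highest values of 9.92 in KO6 and 9.85 in WT8. Fcer1g, the signalling chain of Fc receptors in myeloid and NK cells, differed by 1.12, and its groups overlapped because KO9 reached 7.78 and WT6 stood at 7.71. Lst1, a leukocyte transcript, differed by 1.30, and Mpeg1, which encodes the macrophage pore protein perforin-2, by 1.11. Beside these genes, the mean of the T cell list ran from 5.40 to 6.93 in interferon-high tumours, against 5.42 to 5.58 in interferon-low tumours, and that of the macrophage list from 6.59 to 7.15, against 6.15 to 6.68.

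Ell2, an elongation factor that promotes secretory immunoglobulin transcripts in plasma cells, differed by 1.29, and Slc40a1, the iron exporter ferroportin, by 0.72. The other genes that rose were Taf9b (1.32), a TFIID-related subunit, the small GTPase gene Rab30 (1.41), Olfml3 (1.03), Ifi207 (0.88) of the DNA-sensing PYHIN family, Slc46a3 (0.83), Enpp4 (0.77) and the membrane protein gene Itm2b (0.71). Taf9b was nearly constant among interferon-high tumours, from 6.24 to 6.61, while interferon-low tumours spread from 4.33 to 5.84. All had a limma adjusted p between 0.0328 and 0.048.

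The 5 genes that fell were not in any list. Kcnk1, a potassium channel gene, had 4.95, 5.61 and 6.01 in interferon-high tumours, against 5.90, 7.05 and 7.42 in interferon-low tumours, so it differed by -1.37 (SE 0.24, limma adjusted p = 0.048). Its groups overlapped through KO3 at 5.90 and WT4 at 6.01. Bcat1, which starts the breakdown of branched-chain amino acids, had 5.71, 6.42 and 6.75 in interferon-high tumours, against 7.26, 7.44 and 7.84 in interferon-low tumours, a difference of -1.14 with no overlap. Elovl6, a fatty acid elongase, differed by -0.96, and Rpap3, a cofactor in the assembly of RNA polymerases and other complexes, by -0.93. E2f3, a transcription factor of the cell cycle, differed by -0.69. The places left by the naming rule went to Ccdc14 (-0.68), Lrrn4 (-0.67), Gphn (-0.64), Prkci (-0.61), Cbfa2t2 (-0.59), Ddx10 (-0.57) and Ankrd28 (-0.53), which were lower at limma adjusted p-values of 0.079 to 0.085 and did not pass.

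**Figure D2:**
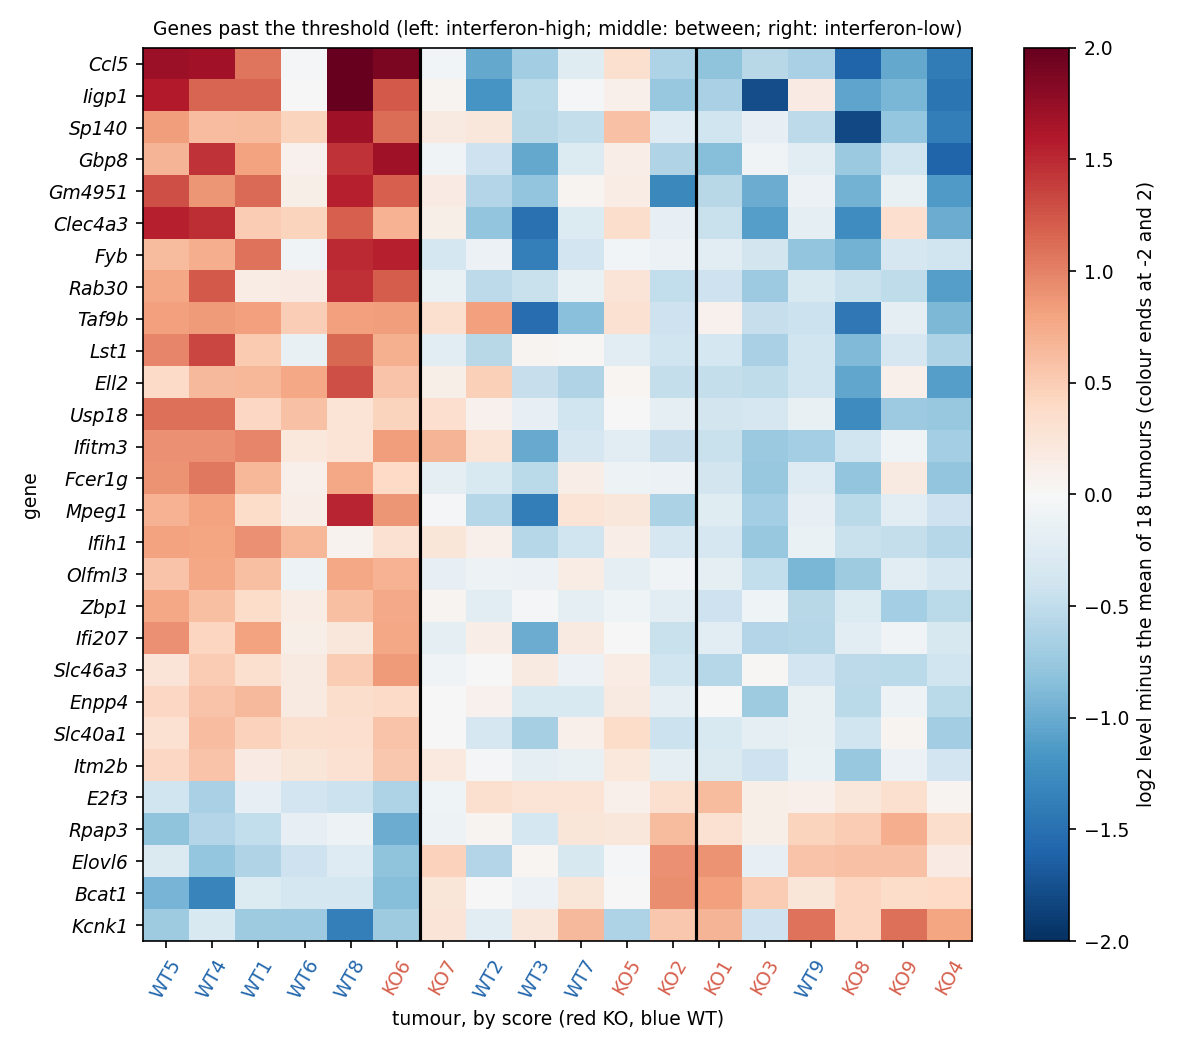
Log2 level minus the mean of the 18 tumours (colour, ends at -2 and 2) for the 23 genes that rose and the 5 that fell, in rows ordered by difference, with tumours in columns ordered by score. The 6 interferon-high columns on the left are red in the upper rows, WT6 is the palest of them, and the middle columns, which did not enter the fit, lie between the groups on average for all 28 genes.

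For the genes past the threshold, the tumours of the less frequent genotype in each group sat with their score group. KO6, the only KO tumour among the interferon-high, lay above every interferon-low tumour for 23 of the 23 genes that rose and below every one for 5 of the 5 that fell. WT9, the only WT tumour among the interferon-low, lay below every interferon-high tumour for 22 of the 23 and above every one for 5 of the 5. Over all 19933 genes tested, KO6 lay above every interferon-low tumour for 2577 and below every one for 2931. WT9 lay below every interferon-high tumour for 3959 and above every one for 4168. Both tumours were part of the fit that chose the genes past the threshold, most of which separated the groups completely. Their counts for those genes were therefore largely fixed in advance and are a description.

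Within each genotype the levels were fitted against the score as a continuous term. Ccl5 changed by 2.14 (SE 0.43) per unit of score over the 9 KO tumours and by 1.72 (SE 0.46) over the 9 WT tumours. For Usp18 the slope was 1.20 (SE 0.20) in KO and 0.96 (SE 0.15) in WT tumours, and for Bcat1 it was -0.57 (SE 0.35) in KO and -0.88 (SE 0.16) in WT tumours. Sp140 had 1.92 (SE 0.34) in KO and 0.94 (SE 0.34) in WT tumours. Whether slopes differed between genotypes was not tested. Among the 23 genes that rose, 20 had an unadjusted slope p below 0.05 over KO tumours and 21 over WT tumours, and among the 5 that fell 2 did over KO and 5 over WT tumours. These tumours include the 12 that chose the genes. Over all genes, limma called 0 higher and 0 lower at the adjusted threshold in either genotype alone, with 892 higher and 659 lower at an unadjusted p below 0.05 in KO tumours and 654 higher and 883 lower in WT tumours.

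**Figure D3:**
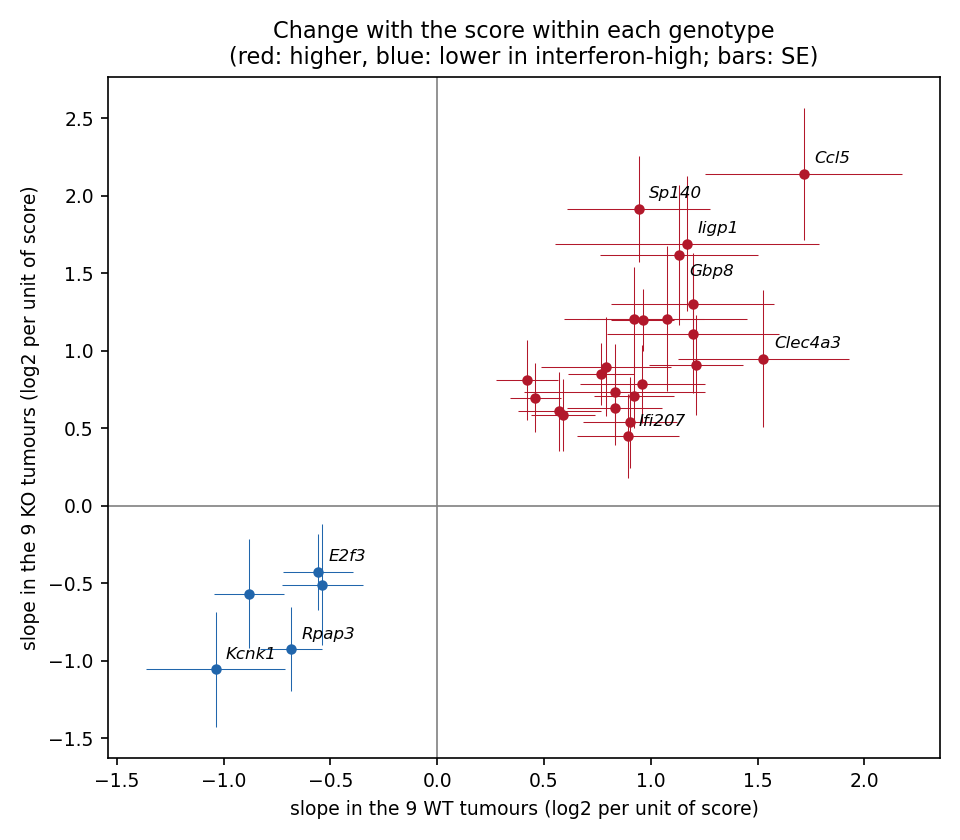
Slope of the log2 level on the score over the 9 KO tumours (vertical) against that over the 9 WT tumours (horizontal) for the 23 genes that rose (red) and the 5 that fell (blue) in interferon-high tumours, with SE bars. Red points lie in the upper right and blue points in the lower left, with Ccl5 the furthest at 2.14 over KO and 1.72 over WT tumours.

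The interferon pathway was followed from ligand to effector through gene lists. No interferon ligand of 15 measured was higher at an unadjusted p below 0.05 and 1 was lower, and the median difference was -0.08, beside -0.0085 over all genes tested. Ifnb1 had 3.57, 3.93 and 4.05 in interferon-high tumours, against 3.70, 3.90 and 4.10 in interferon-low tumours (difference -0.02, unadjusted p = 0.836). Ifng had 5.02, 5.37 and 6.31 in interferon-high tumours, against 4.16, 5.08 and 5.82 in interferon-low tumours (difference 0.46, unadjusted p = 0.102). Ifna2 differed by -0.32 (unadjusted p = 0.0419). The groups overlapped for all 3 ligands, and a p that misses the threshold does not show equal levels. By mean level among all genes, Ifnb1 stood at percentile 13.0, Ifng at 44.1 and Ifna2 at 49.6. Ifnb1 in particular may lie too near the array floor to show a difference.

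Receptor and kinase genes were higher in part. Of 9 measured, 4 were higher at an unadjusted p below 0.05 and 0 lower, 2 separated the groups, and the median difference was 0.41. Ifnar2 averaged 9.06 ± 0.35 in interferon-high tumours and 8.28 ± 0.21 in interferon-low tumours (SD, n = 6 each, difference 0.79, SE 0.16, limma adjusted p = 0.0832), and Ifnar1 differed by 0.41. Jak2 differed by 0.85, while Tyk2 differed by 0.16 and Jak1 by 0.30 with unadjusted p-values above 0.05. Among 8 transcription factors of the pathway 4 were higher, with a median of 0.35. Stat2 had 5.89, 6.07 and 6.51 in interferon-high tumours, against 5.44, 5.65 and 5.80 in interferon-low tumours (difference 0.49, limma adjusted p = 0.151), and Irf9, its partner, differed by 0.48. Stat2, Irf9, Ifnar1 and Ifnar2 separated the groups completely but none passed the adjusted threshold.

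Of 64 measured interferon-stimulated effectors outside the score, 38 were higher and 0 lower at an unadjusted p below 0.05, 57 had a positive difference, and the median was 0.46. Over all genes tested, 5.82% were higher at that threshold. Rtp4, an interferon-stimulated chaperone, had 7.11, 7.75 and 9.29 in interferon-high tumours, against 5.52, 6.19 and 6.90 in interferon-low tumours, and differed by 1.84 (limma unadjusted p = 0.00014), with no overlap. The mean of the list ran from 6.60 to 7.20 in interferon-high tumours, against 6.19 to 6.45 in interferon-low tumours. In the tumours between, it ran from 6.23 to 6.80 and overlapped both. With genotype as a covariate the median was 0.44, and the median slope per unit of score was 0.44 over KO tumours and 0.45 over WT tumours.

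Nucleic acid sensors showed 8 of 21 higher and 0 lower, with a median of 0.26. Besides Zbp1 and Ifih1, Tlr7, the endosomal receptor for single-stranded RNA, differed by 1.34 and Tlr3 by 0.74, whereas Cgas differed by -0.44 and Myd88 by -0.21 with unadjusted p-values above 0.05. Of 12 feedback inhibitors only Usp18 was higher at an unadjusted p below 0.05, and the median was 0.12. Socs2 (-0.83) and Socs3 (0.09) did not pass that threshold.

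Genes known from the interferon gamma response had a larger median of 0.71, with 18 of 24 higher and 0 lower. Cxcl9, a chemokine ligand of CXCR3, had 5.84, 7.55 and 7.96 in interferon-high tumours, against 4.61, 5.35 and 6.59 in interferon-low tumours (difference 1.85). Cxcl10 differed by 1.32 and Gbp3 by 1.01. Antigen presentation genes followed. Of 19 MHC class I genes 10 were higher and 0 lower (median 0.39), among them B2m (0.47) and H2-T24 (0.84, limma adjusted p = 0.0634). Of 11 MHC class II genes 8 were higher and 0 lower (median 1.10), and Ctss, the protease that processes the invariant chain, had 9.45, 9.87 and 10.41 in interferon-high tumours, against 8.66, 8.94 and 9.29 in interferon-low tumours (difference 0.93). The class II list was not uniform within the interferon-high tumours, with a mean of 6.42 in WT1 and 8.30 in KO6. Among 18 NF-kB targets 6 were higher and 0 lower, with a median of 0.31.

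**Figure D4:**
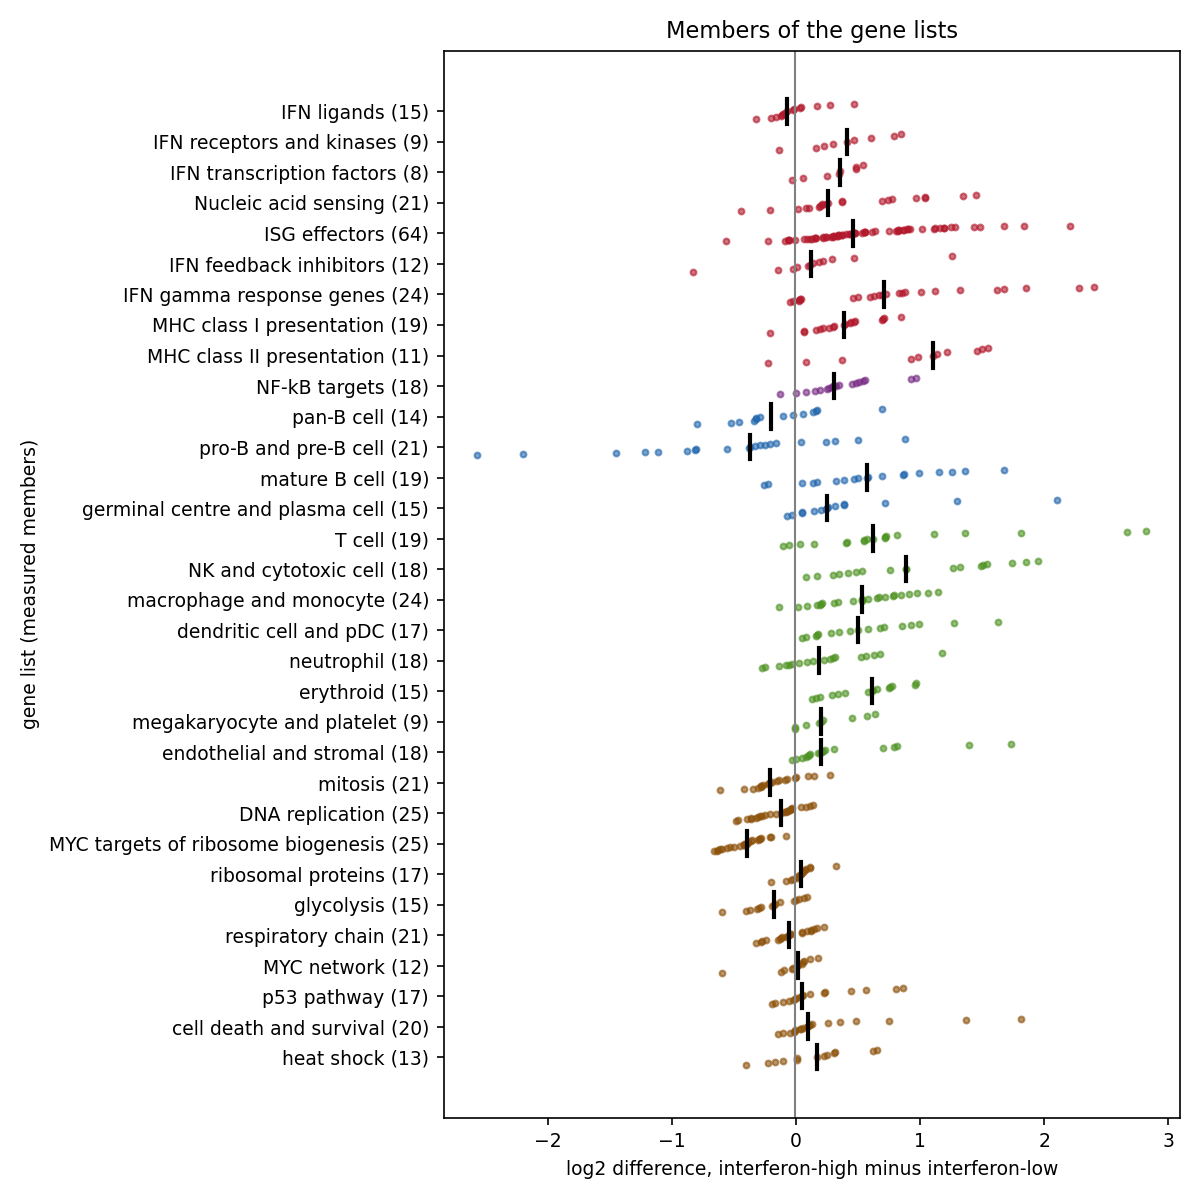
Log2 difference, interferon-high minus interferon-low, for each measured member (points) of 32 gene lists, with the list median as a black bar and the median of all genes tested as a grey line. Members of the interferon gamma response and MHC class II lists have medians of 0.71 and 1.10, the interferon ligands lie around 0, and the 25 ribosome biogenesis genes all lie below 0.

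Promoter windows were also searched for paired GAAA motifs across the lists and all genes, as a description without a test. Of 50 effectors matched to the RefSeq promoter table, 19 (38%) held the motif, as did 6 of 13 interferon gamma response genes (46.2%), against 604 of 15609 genes over all (3.87%). Among effectors the share was 38.7% (12 of 31) in those higher at an unadjusted p below 0.05 and 36.8% (7 of 19) in the others. Of the 1160 genes higher at that threshold 906 were matched and 80 held it (8.83%), and of the 977 lower 758 were matched and 25 held it (3.3%). For comparison the STAT motif TTCNNNGAA was in 10.6% of the higher genes, 8.97% of the lower and 8.99% of all genes. It was in 9 of the 50 effectors (18%) and 3 of the 13 interferon gamma response genes (23.1%). Among the matched genes that passed the adjusted threshold, it was in 3 of 14 that rose (21.4%) and 0 of 5 that fell. Of the 23 genes that rose 14 were matched, and 3 held the paired GAAA motif, namely Ifitm3, Ifih1 and Ifi207, while none of the 5 that fell did. In Ifi207, which the lists did not hold, the match began 41 bases before the start.
Ifi207 (chr1:173741816-173741875, - strand): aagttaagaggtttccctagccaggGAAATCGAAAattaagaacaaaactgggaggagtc
In Ifitm3 the matches began at base 3 and base 20 of the gene and in Ifih1 at base 33. A match is a description of these windows, and binding was not measured.

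Transcripts of other spleen cells moved with the score. In the T cell list, 11 of 19 measured genes were higher and 0 lower at an unadjusted p below 0.05 (median 0.62), and in the NK and cytotoxic list 13 of 18 were higher and 0 lower (median 0.88). Cd3g, a chain of the T cell receptor complex, had a level of 8.92 in WT5, 9.26 in WT4, 6.24 in WT1, 6.37 in WT6, 8.66 in WT8 and 9.64 in KO6, against 5.80 in KO1, 5.70 in KO3, 6.08 in WT9, 5.09 in KO8, 5.69 in KO9 and 4.69 in KO4. In this gene 4 of the interferon-high tumours were far above the interferon-low range, and WT1 and WT6 only just above it (difference 2.67, SE 0.55, limma adjusted p = 0.085). Cd3d differed by 2.82 and Gzmb, the protease granzyme B, by 1.32.

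The same division ran through the interferon-high tumours in several lists. The T cell mean was 6.50 in WT5, 6.70 in WT4, 6.85 in WT8 and 6.93 in KO6, but 5.40 in WT1 and 5.68 in WT6, against 5.42 to 5.58 in interferon-low tumours. WT1 and WT6 were likewise the lowest of the interferon-high tumours for the NK list, at 4.70 and 5.12, and for the dendritic cell list, at 5.63 and 5.68. Both were nevertheless above every interferon-low tumour for the effector list, at 6.60 and 6.69. WT1 also had the highest erythroid mean, 9.07, and a pro-B and pre-B mean of 7.87, whereas KO6 had the lowest erythroid mean, 6.32, and the highest mature B cell mean, 7.62. Neutrophil transcripts stood high in WT5 and WT4, at 8.08 and 8.20, and between 6.29 and 6.63 in the other interferon-high tumours, against 5.84 to 7.68 in interferon-low tumours.

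Macrophage and monocyte genes were higher across the interferon-high tumours more evenly. Of 24 measured, 14 were higher and 0 lower (median 0.53), 5 separated the groups, and the list mean ran from 6.59 to 7.15 in interferon-high tumours, against 6.15 to 6.68 in interferon-low tumours. Adgre1, which encodes the macrophage antigen F4/80, had 6.29, 6.49 and 6.76 in interferon-high tumours, against 5.65, 6.02 and 6.14 in interferon-low tumours (difference 0.53). Cd68, a lysosomal marker, differed by 0.79 and C1qc by 0.91, while C1qa differed by 0.21 (unadjusted p = 0.184). Of 17 dendritic cell genes 10 were higher and 0 lower (median 0.50), with Ccr9 at 0.85 and the plasmacytoid marker Siglech at 0.99. Neutrophil genes had 2 of 18 higher (median 0.18), erythroid genes 1 of 15 (median 0.61), megakaryocyte genes 2 of 9 (median 0.20) and stromal genes 5 of 18 (median 0.20, Ccl19 at 1.40). The shares of neutrophil and erythroid genes were close to the 5.82% of all genes at that threshold or rested on 1 or 2 genes. No marker was at 0, since array intensities have a floor above it.

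**Figure D5:**
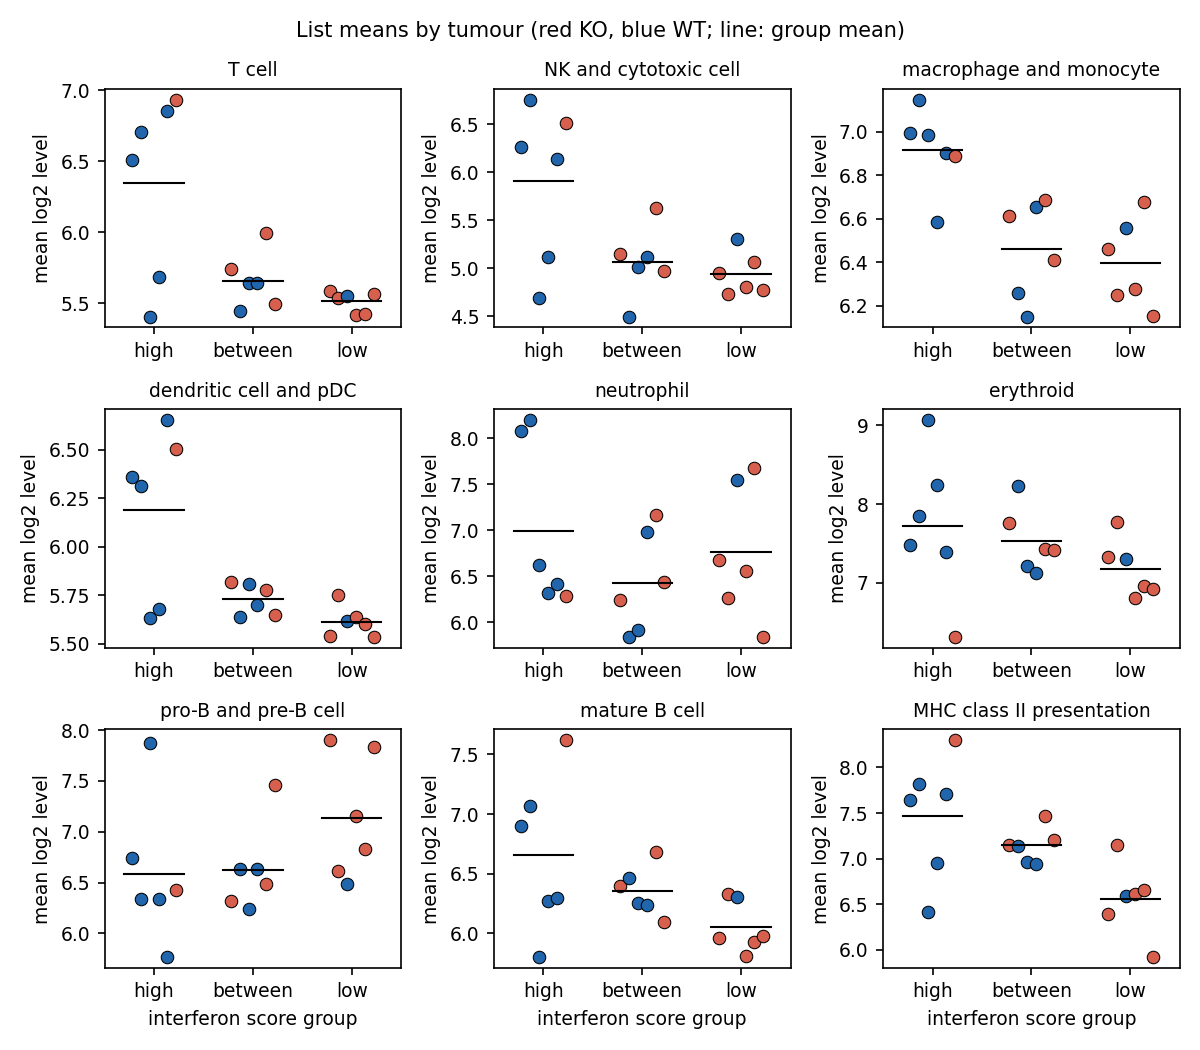
Mean log2 level of the measured members of 9 lists in each tumour (points, red KO, blue WT) by score group, with lines at the group means and a separate vertical scale in each panel. In the T cell panel 4 interferon-high tumours stand at 6.50 to 6.93, while WT1 at 5.40 and WT6 at 5.68 lie near the interferon-low range of 5.42 to 5.58.

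When the T cell list mean was added to the fit as a covariate, 0 genes passed the adjusted threshold in either direction (777 higher and 355 lower at an unadjusted p below 0.05). The effector median was then 0.22, with 52 of 64 positive, and the interferon gamma response median 0.40, with 23 of 24 positive. The MHC class II median was 0.17, the NK median -0.0009 and the macrophage median 0.51. With the T cell, macrophage and erythroid means all added, the effector median was 0.21 with 43 of 64 positive and the interferon gamma response median 0.22 with 19 of 24 positive. In that fit the receptor and kinase median was -0.04 (4 of 9 positive), the NK median -0.27 (5 of 18) and the neutrophil median -1.65 (1 of 18), all opposite in sign to the pooled comparison. The MHC class I median was 0.04. The macrophage median was also 0.04, but the mean of that list was itself a covariate, which holds its members near 0 by construction. These covariates were measured on the same arrays and carry the genotype and score differences with them. With genotype as a covariate, the neutrophil median was -0.36 and the erythroid median -0.02, both below 0 and so opposite in sign to the pooled comparison, whereas the T cell median was 0.80 and the macrophage median 0.47.

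The B lineage lists differed by stage. Pan-B genes had 1 of 14 higher and 0 lower (median -0.20, and 0.29 with genotype as a covariate, which turned its direction). Of these genes, 5 had a positive and 9 a negative difference. Blk, the 1 that was higher, differed by 0.69 (limma unadjusted p = 0.0407), and Cd79b by 0.16. The B lineage markers Cd79a and Pax5 differed by -0.53 and -0.46 with limma unadjusted p-values of 0.199 and 0.196. Pro-B and pre-B genes had 7 of 21 lower and 0 higher (median -0.37, and -0.19 with genotype as a covariate). Over all genes tested, 4.9% were lower at an unadjusted p below 0.05. Igll1, a surrogate light chain gene of pre-B cells, had 5.58, 6.36 and 7.84 in interferon-high tumours, against 6.43, 8.71 and 10.66 in interferon-low tumours (difference -2.21, SE 0.60, limma adjusted p = 0.178), and its partner Vpreb1 differed by -2.57. The groups overlapped for both. The median slope of the list was -0.42 per unit of score over KO tumours and 0.08 over WT tumours. Its median was 0.04 with the T cell mean as a covariate and 0.15 with the T cell, macrophage and erythroid means, both opposite in sign to the pooled comparison. Mature B genes had 6 of 19 higher and 0 lower (median 0.57), and with the T cell mean as a covariate the median was -0.0054, with 8 of 19 positive. Gpr183, which guides B cell position in follicles, differed by 1.26, and Cr2, the complement receptor of mature B cells, by 1.68 (limma adjusted p = 0.441). Cr2 was 9.64 in KO6, 8.05 in WT4 and 7.16 in WT5, but 5.12 in WT6, 4.83 in WT1 and 4.35 in WT8. Interferon-low tumours had 4.41 to 5.48, so the groups overlapped. Germinal centre and plasma cell genes had 5 of 15 higher (median 0.25), including Jchain at 2.11.

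MYC targets of ribosome biogenesis had the lowest median of the 32 lists. All 25 measured members had a negative difference, 13 were lower at an unadjusted p below 0.05, and the median was -0.40. Pes1, a factor of large ribosomal subunit assembly, had 6.59, 6.83 and 7.03 in interferon-high tumours, against 7.01, 7.40 and 7.73 in interferon-low tumours (difference -0.62, SE 0.13, limma adjusted p = 0.0911). The list mean ran from 7.88 to 8.50 in interferon-high tumours, against 8.32 to 8.81 in interferon-low tumours, and overlapped through WT1 at 8.35, WT8 at 8.50, KO4 at 8.32 and KO1 at 8.47. The median was -0.51 with genotype as a covariate and -0.32 with the T cell mean as a covariate, and the median slope per unit of score was -0.22 over KO tumours and -0.39 over WT tumours. Myc itself had 9.03, 9.66 and 10.39 in interferon-high tumours, against 9.96, 10.15 and 10.91 in interferon-low tumours (difference -0.60, SE 0.21, unadjusted p = 0.013, limma adjusted p = 0.307).

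Other growth lists stayed closer to the median of all genes in the pooled comparison. DNA replication genes had 0 of 25 past an unadjusted p of 0.05 in either direction (median -0.12), and mitosis genes 1 of 21 lower (median -0.21). With genotype as a covariate the replication median was -0.38 (0 of 25 positive) and the mitosis median -0.45 (0 of 21 positive). With the T cell mean as a covariate both directions turned, with a replication median of 0.23 (23 of 25 positive) and a mitosis median of 0.37 (20 of 21 positive). With the T cell, macrophage and erythroid means all added, both were again negative, at -0.22 (6 of 25 positive) and -0.32 (3 of 21 positive). The median mitosis slope per unit of score was 0.04 over WT tumours and -0.20 over KO tumours. Glycolysis genes had 3 of 15 lower (median -0.18), among them Pdk1 (-0.37) and Pkm (-0.60). Ribosomal proteins (median 0.04), the respiratory chain (-0.06) and the MYC network (0.01) had medians near 0. In the p53 list 4 of 17 were higher (median 0.05), among them the antiproliferative gene Btg2 (0.81). In the cell death list 4 of 20 were higher (median 0.09), among them the inflammatory caspase genes Casp1 (1.82), Casp4 (1.37) and Casp12 (0.75). In the heat shock list 2 of 13 were higher (median 0.17), with Dnajb1 at 0.65.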

How the data were processed

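The deposited values were linear intensities of Affymetrix probe sets, 1 array per tumour, which the authors obtained by RMA according to the submitters' processing notes; they ran from 1.63 to 14996. They were turned to log2 without a pseudocount; the medians of the arrays were 5.14 to 5.38. The number of arrays limits the precision. WT3, which lay between the groups and did not enter the fit of 6 against 6, had the lowest median correlation to other arrays (0.924). Of 35556 probe sets, 21789 had a single symbol in the platform annotation, 1621 several and 12146 none. The probe set of highest mean represented each of 19938 genes (999 had several). Symbols were checked against RefSeq (GRCm38.p6) for 21698 probe sets.

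Groups were fitted with limma 3.58.1 in R 4.3.3 (lmFit, eBayes), without covariates and with the score genes left out. Figures and counts used Python 3.11.15 with pandas 2.3.3. The steps were tested on simulated data. The members and the gene lists were chosen with earlier results of these data known. The naming rule took, outside the lists, the 12 largest differences each way past the threshold, filled by smallest unadjusted p, then up to 4 (interferon) or 2 genes past it per list, or otherwise the gene of smallest p, and Prdm11, Myc, Ifnb1 and Ifng. Defining markers of each cell type were listed as well. Itm2b, Rtp4 and the further list members named were chosen after their values were seen. Alternatives covered genotype, grouping, scaling, probe set choice, the variance model, cell list covariates and left-out tumours.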

Additional observations from a re-analysis of the deposited data

Results flagged for a closer look

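Among 156 tests of single tumours (78 items in 2 groups), 5 found 1 tumour far from the other 5 of its group by Dixon's criterion, which chance alone does in about 1 in 20. Ccl3, a chemokine gene among the NF-kB targets, was 7.25 in WT8, against 4.65 to 5.37 in the other interferon-high tumours. Taf9b was 6.24 in WT6 and 6.57 to 6.61 in the other interferon-high tumours. Olfml3 was 6.6 in WT6 and 7.27 to 7.47 in the others. H2-T24, a nonclassical MHC class I gene, was 6.05 in KO6 and 6.5 to 6.75 in the other interferon-high tumours. Slc46a3 was 6.22 in KO3 and 5.63 to 5.82 in the other interferon-low tumours.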

How the results depend on the processing

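The counts of 23 higher and 5 lower genes depended on the tumours and settings. Leaving out 1 tumour in turn gave 0 to 114 higher and 0 to 32 lower genes. Higher and lower counts were 43 and 2 without WT6, 4 and 0 without WT8, 5 and 2 without KO3, 10 and 0 without KO9, and 0 and 1 without KO4. They were 0 and 0 with genotype as a covariate, after median centring, with the 9 highest against the 9 lowest scores, with the T cell list or all 3 cell lists as covariates, and with the score as a continuous term within the 9 KO or the 9 WT tumours (the last setting chosen after seeing the data). They were 30 and 8 after quantile normalization and 26 and 5 with dim genes left out, and both settings kept all 28 calls. They were 54 and 0 within KO tumours, 0 and 2 within WT tumours (a lone tumour on 1 side of each, assumed to vary like the others), 1 and 0 over all probe sets, 14 and 2 with a variance trend, 62 and 31 with array weights, and 1 and 0 for the 4 highest against the 4 lowest. Groups by the effector list, which shared 5 of 6 tumours on each side, gave 1 and 0, with 0 and 0 of the original calls. The continuous score gave 70 and 8 over 18 tumours, with 18 and 3 of the original calls, and 20 and 3 with genotype added (chosen after seeing the data). At an unadjusted p below 0.05, 654 to 1593 genes were higher and 355 to 1510 lower in these settings, except 175 and 173 with 3 cell lists. The setting with all probe sets tested 35550 probe sets instead of genes, of which 1680 were higher and 1967 lower. Median centring moved the median of all genes to -0.05. Replicate numbers did not pair tumours (correlations of -0.17, 0.05 and 0.03), and the replicate block gave 0 and 0. The causes of these shifts were not tested.

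Of 2004 values of named genes under 31 alternatives, 36 turned sign, in 16 genes. Ifnb1 (-0.02) was 0.18 within WT tumours, 0.0076 after quantile normalization, 0.039 with array weights, 0.11 for 4 against 4, 0.12 for 9 against 9, 0.0528 with the continuous score, 0.10 with genotype added to it, 0.23 over 9 WT tumours, 0.10 with the T cell list, 0.0025 with 3 cell lists, and from -0.0629 to 0.0324 with 1 tumour left out, above 0 without WT8, KO6 or KO4. Mcm7 was 0.003 for 4 against 4, 0.0673 with the T cell list, 0.0061 with the replicate block and 0.0355 over 9 WT tumours. Ifng was -0.33 within WT tumours, -0.13 over 9 WT tumours and -0.22 with 3 cell lists. Prdm11 was -0.15 within KO tumours, -0.11 over 9 KO tumours and -0.0238 with the block. The Y-linked Uty was -0.30 within WT tumours and -0.17 with 3 cell lists, and Klf1 -0.32 within KO tumours. With 3 cell lists Ifna2 was 0.24, Igll1 0.10, Gzmb -0.78, Cxcr2 -0.54, Ccl19 -0.22, Rpl13 -0.41, Casp12 -0.0092 and Lst1 -0.16. Over 9 KO tumours Clec1b was -0.11 and Atp5a1 0.18.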

Other observations

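Homeostatic chemokine genes of lymphoid stroma were among the larger differences outside the interferon lists. Cxcl13, which attracts B cells to follicles, differed by 1.74 (limma unadjusted p = 0.00459), and Ccl19, which attracts T cells and dendritic cells, had 7.36, 8.74 and 9.58 as its lowest, median and highest log2 level in interferon-high tumours, against 6.48, 7.16 and 7.59 in interferon-low tumours (difference 1.40, SE 0.37, limma adjusted p = 0.166). The matrix gene Dcn differed by 0.79, whereas Col1a1 (-0.0007) and the endothelial gene Pecam1 (0.10) had unadjusted p-values of 0.996 and 0.699. None passed the adjusted threshold, the groups overlapped for Ccl19, and Cxcl13 was chosen after its values were seen.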
